A study of Mus musculus with 22 samples.

Results

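Immediate-early genes are transcribed within minutes of a stimulus, from promoters whose activating factors are already present in the cell. Growth factor signals reach them through the MAP kinases, serum response factor and CREB. Heat shock genes of the Hsp70 family are switched on by heat shock factor 1 when unfolded proteins accumulate, and their products refold or hold such proteins. Both groups are also known to respond while tissue is dissociated and cells are sorted. The 10 members, Fos, Fosb, Jun, Junb, Egr1, Atf3, Ier2, Dusp1, Hspa1a and Hspa1b, were taken by name from a table of 24454 gene symbols, and all 10 were present.

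The 22 libraries were each made from 25 VE-cadherin-positive cells sorted from the aorta-gonad-mesonephros (AGM) region of untreated C57BL/6 mouse embryos, the site where endothelium gives rise to the first blood stem and progenitor cells. CD44Neg cells carried no CD44 at the surface (10 libraries, of which 4 were from E9.5 and 3 each from E10 and E11), and CD44LowKitNeg cells had low CD44 and no Kit (6 libraries, with 1 from E9.5, 2 from E10 and 3 from E11). CD44LowKitPos cells had low CD44 with Kit (3 libraries, 1 at E9.5 and 2 at E10), and CD44High cells had high CD44 (3 libraries, all at E11). Each stage carried a date code of its own, so stage and date cannot be told apart, and the labels do not say which libraries came from separate embryos or litters, so p-values measure the spread between libraries, which may be partly technical.

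Between 3912350 and 8657546 reads were counted per library. Levels are given as normalized CPM, counts scaled to library size and by edgeR's TMM factors, and 3 counts, the most that a count of 0 allows, corresponded to 0.348 to 0.816 normalized CPM. This limit covers counting error only, since the reads carry no molecular identifiers. Ribosomal Rn45s took 1.92 to 13.8% of the reads at E9.5, 6.82 to 19.4% at E10 and 15.2 to 23.9% at E11. The 5 endothelial markers (Cdh5, Pecam1, Kdr, Tek, Tie1) were all detected in CD44Neg, CD44LowKitNeg and CD44LowKitPos cells. In the CD44High libraries Cdh5, which encodes VE-cadherin itself, was at 0 in all 3, and the 5 markers summed to only 11.9 to 60.2 normalized CPM, against 1337 to 3080 in CD44Neg. All 8 macrophage markers were detected in CD44High cells and summed to 1683 to 4525 normalized CPM, whereas C1qa, C1qb, C1qc and Adgre1 were at 0 in every other library. Fewer cells of a type and less RNA per cell cannot be told apart in such pools.

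The promoters of the members on which the results turn are shown first, since promoters can hold sites of the factors named above. They run from 250 bases before to 50 bases after the RefSeq start, in GRCm38.p6, 5′ to 3′ on the gene's own strand. Capitals mark a heat shock element, searched as GAANNTTC or TTCNNGAA, or the cyclic AMP response element bound by CREB, searched as TGACGTCA and as its half-site TGACG on both strands. Fos encodes the FOS subunit of AP-1, lies on chromosome 12 (plus strand), and has 2 half-sites, 129 and 66 bases before the start, with a TATA box 33 bases before it.
Fos, chr12:85473640-85473939: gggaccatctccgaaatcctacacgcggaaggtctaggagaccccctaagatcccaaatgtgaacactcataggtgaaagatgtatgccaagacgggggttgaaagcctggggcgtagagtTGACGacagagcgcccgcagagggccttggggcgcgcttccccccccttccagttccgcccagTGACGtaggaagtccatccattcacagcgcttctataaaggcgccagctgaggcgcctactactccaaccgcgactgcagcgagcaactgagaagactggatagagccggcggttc
Hspa1a, chr17:34972107-34972406, minus strand: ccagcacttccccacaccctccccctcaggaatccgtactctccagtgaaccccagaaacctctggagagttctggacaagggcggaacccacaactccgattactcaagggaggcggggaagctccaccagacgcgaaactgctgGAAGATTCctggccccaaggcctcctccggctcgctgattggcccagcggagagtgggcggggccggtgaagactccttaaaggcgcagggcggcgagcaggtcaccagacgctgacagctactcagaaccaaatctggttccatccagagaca
Hspa1b, chr17:34959189-34959488, minus strand: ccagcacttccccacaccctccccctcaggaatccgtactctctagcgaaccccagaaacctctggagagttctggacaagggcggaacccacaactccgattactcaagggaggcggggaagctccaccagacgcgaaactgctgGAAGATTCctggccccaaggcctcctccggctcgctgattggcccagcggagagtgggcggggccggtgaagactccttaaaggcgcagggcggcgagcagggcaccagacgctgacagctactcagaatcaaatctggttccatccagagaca
Dusp1, chr17:26508423-26508722, minus strand: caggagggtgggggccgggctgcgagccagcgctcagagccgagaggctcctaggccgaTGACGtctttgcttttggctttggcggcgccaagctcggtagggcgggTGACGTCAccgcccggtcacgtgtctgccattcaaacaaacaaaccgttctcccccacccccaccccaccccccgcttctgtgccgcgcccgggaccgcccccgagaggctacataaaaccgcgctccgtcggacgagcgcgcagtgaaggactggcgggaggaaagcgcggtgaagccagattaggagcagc
Hspa1a and Hspa1b encode nearly the same inducible Hsp70 and are neighbours on chromosome 17. Their promoters were identical at 296 of 300 bases, and both hold the heat shock element GAAGATTC 104 bases before the start. Of the 32851 promoters in the table, 15.1% hold a heat shock element. Among the 8 members found there (Egr1 and Ier2 were not matched), Jun was the other one to hold it, 128 bases before its start. The full cyclic AMP response element occurred in 1.79% of all promoters and in Dusp1, 143 bases before the start, and the half-site, which the full element also contains, in 20.8% of all promoters. The half-site was found in Fos, Fosb, Junb, Atf3 and Dusp1. Neither the AP-1 site TGANTCA (7.81% of all promoters) nor the CArG box (1.63%), the site of serum response factor, was matched in the windows of these 8 members. These matches describe the letters alone.

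Reads were counted once per gene, and several members share sequence with other genes. Of the 50-base windows of the Hspa1a transcript, 58.8% also occur in Hspa1b, and 62.3% of those of Hspa1b in Hspa1a, so how reads were shared between the pair is uncertain. Single values for either gene carry that limit. In the GENCODE vM21 annotation of mm10, exons of Junb overlap those of Prdx2 on the opposite strand over 173 bases, and exons of Dusp1 overlap Ergic1 over 11 bases. The strand setting of the counting is not given in the sources used here, so reads in those stretches could belong to either gene.

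Per kilobase of exon, the most abundant member was Ier2, a small nuclear regulator, with a median over the 22 libraries of 82.3 normalized CPM per kb. Dusp1, a phosphatase that switches MAP kinases off, followed with 34.1, Hspa1a with 31.3 and Fos with 16.7 normalized CPM per kb. Atf3, a stress-induced repressor of the ATF and CREB family, stood at 12.03, Jun, the partner of FOS in AP-1, at 10.8 and Junb, a weaker partner, at 8.17. Hspa1b had 2.74, the zinc-finger factor Egr1 1.41, and Fosb, a relative of Fos, 0.0476 normalized CPM per kb. By the population means, Fos held 12.5 normalized CPM per kb in CD44Neg, below Ier2, Dusp1, Hspa1a and Atf3, and 39.1 in CD44LowKitNeg, below Ier2 alone and next to Dusp1 at 37.8. In CD44High cells it was the highest member, with a mean of 134 normalized CPM per kb.

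**Figure D1:**
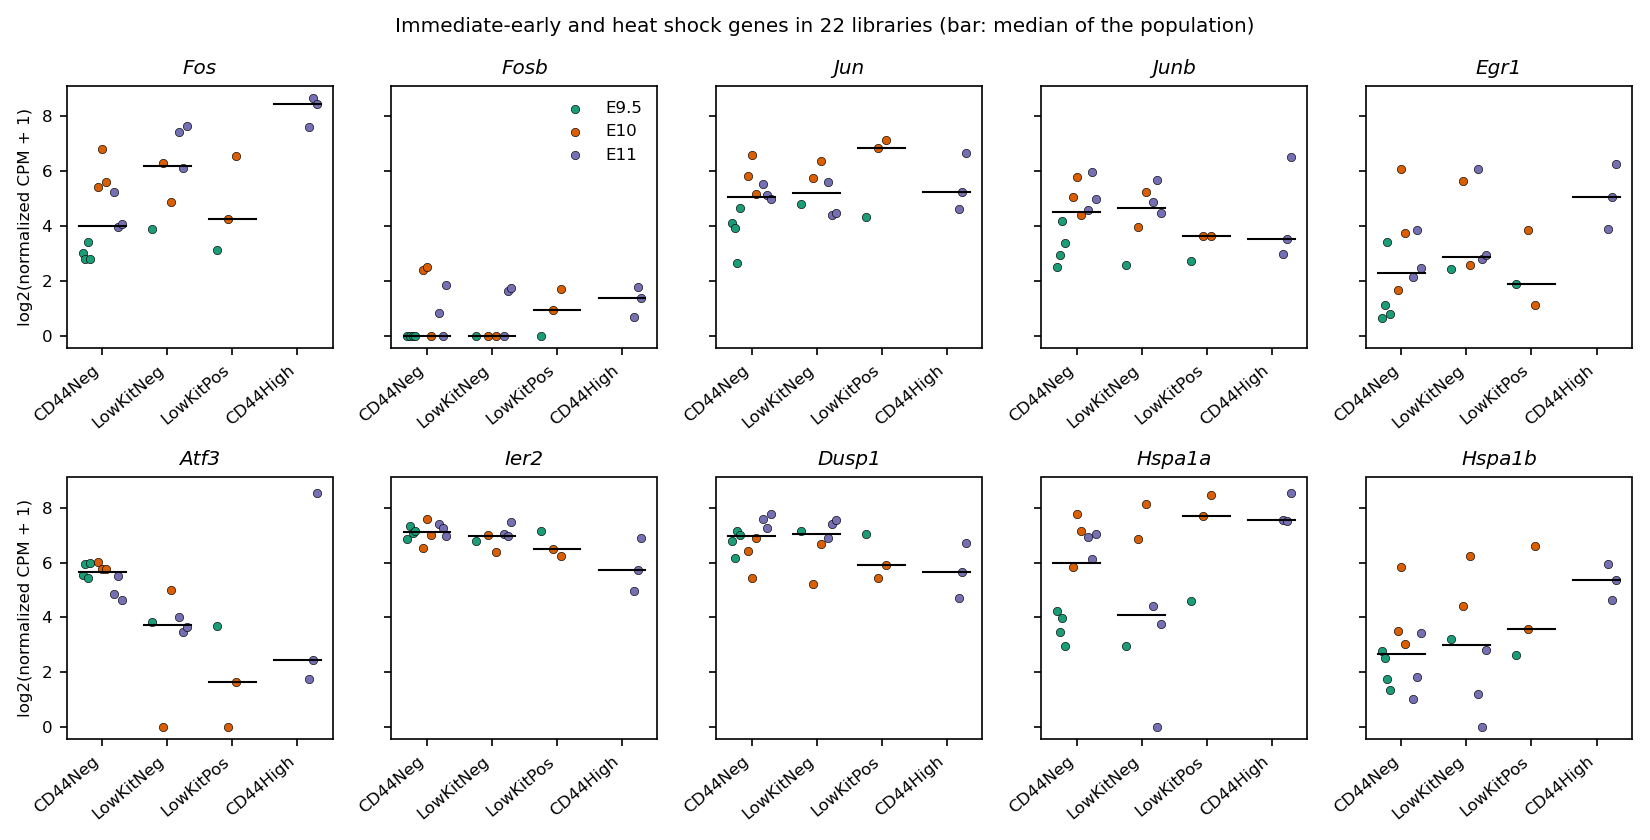
Levels of the 10 members in each of the 22 libraries, as log2(normalized CPM + 1) on the vertical axis, by population on the horizontal axis and by stage in colour, with a bar at the median of each population. The E9.5 libraries of the 3 populations sampled at that stage lie low for Fos and Hspa1a, Fos is highest in CD44High, and Ier2 lies between 74.3 and 192 normalized CPM outside that population.

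Across stages within CD44Neg, Hspa1a was the member that passed the test. Hspa1a was at 17.6, 10.0, 14.7 and 6.89 normalized CPM in the 4 E9.5 libraries. At E10 it was at 55.9, 219 and 141, and at E11 at 122, 69.7 and 129 normalized CPM. Every later library was above every E9.5 library, and the E10 and E11 libraries overlapped. In the same libraries the 5 endothelial markers summed to 1337 to 1728 normalized CPM at E9.5, 2239 to 2334 at E10 and 2368 to 3080 at E11. Their part in the Hspa1a level was not tested. Hspa1a rose from E9.5 to E10 by 3.51 on the log2 scale (SE 0.44, edgeR adjusted p = 0.0060, n = 3 against 4) and from E9.5 to E11 by 3.14 (SE 0.43, edgeR adjusted p = 0.0028, n = 3 against 4), that is 11.4-fold and 8.81-fold. E11 against E10 gave a log2 difference of -0.37 (SE 0.44, edgeR adjusted p = 0.90), which did not pass the test. Both calls were lost when the spread was estimated over all 22 libraries (edgeR adjusted p = 0.089 and 0.050), with sizes of 3.42 and 3.09. The E10 call was lost in 8 of the 10 fits that left out 1 CD44Neg library, with edgeR adjusted p up to 0.023, and the E11 call in 2 of 10, without replicate 1 or 3, with adjusted p up to 0.017.

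Few other genes were called in the same fits. At an adjusted p under 0.01, the threshold used throughout, Hspa1a was 1 of the 10 members and 1 of 2 genes called between E10 and E9.5, where 0.0178% of 11250 tested genes were called, the other being Cotl1. Between E11 and E9.5 it was again the only one of the 10 members called, with 0.684% of all genes called (77 genes, and 8 to 98 when 1 library was left out, with 8 without CD44Neg replicate 1 and 9 without replicate 3), and between E11 and E10 no member and no gene was called by edgeR (0% of those tested; at an unadjusted p under 0.05, 4 members and 8.68% of all genes), while DESeq2 called 45 genes and none of the members. Simulated data had the library numbers of this design, 1 spread set for every gene rather than estimated, and changes only in well-counted genes. There edgeR recovered 31 of 100 genes with an 8-fold and 3 of 100 with a 4-fold change between E11 and E9.5. Recovery among the real genes was not measured.

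Fos followed the same order of stages. Its 4 E9.5 libraries held 7.01, 5.97, 9.68 and 5.88 normalized CPM, the 3 at E10 held 41.4, 110 and 47.7, and the 3 at E11 held 37.1, 14.4 and 15.6. The stages did not overlap, E10 being highest and E9.5 lowest. The log2 difference between E10 and E9.5 was 3.23 (SE 0.48, edgeR adjusted p = 0.013) and missed the threshold, but it was called without a filter on low counts, when every library had to hold 10 counts or more, and by DESeq2 (adjusted p = 8.9e-05, 0.0029 and 2.5e-07, beside 0.753, 0.649 and 2.06% of all genes called). Between E11 and E9.5 it was 1.66 (SE 0.46, edgeR adjusted p = 0.071), and between E11 and E10 -1.57 (SE 0.50, edgeR adjusted p = 0.41).

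The AP-1 partners Jun and Junb were also lowest at E9.5. Jun ranged from 5.21 to 24.4 normalized CPM in the E9.5 libraries, from 34.6 to 95.3 at E10 and from 30.8 to 45.6 at E11. Junb ranged from 4.74 to 17.3 at E9.5, from 20.3 to 53.5 at E10 and from 23.1 to 61.1 normalized CPM at E11. For both genes every E9.5 library lay below every later one. Against E9.5, the log2 difference of Jun was 2.06 at E10 (SE 0.47, edgeR adjusted p = 0.052) and that of Junb 2.02 at E11 (SE 0.52, edgeR adjusted p = 0.050), neither of which was called, although DESeq2 called both (adjusted p = 0.0027 and 0.0086). DESeq2 called 3 members between E10 and E9.5 (Fos, Jun and Hspa1a, beside 2.06% of all genes) and 2 between E11 and E9.5 (Junb and Hspa1a, beside 3.9%).

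Egr1 and Fosb were scarce. Egr1 held 0.569, 1.19, 9.68 and 0.718 normalized CPM at E9.5, and reached 65.5 in 1 of the E10 libraries, whose E10 neighbours held 2.21 and 12.3. Fosb was at 0 in all 4 E9.5 libraries, a count that allows up to 0.716 normalized CPM, and at most 4.70 in the later ones, of which 1 at E10 and 1 at E11 were at 0 as well. The stages overlapped for Egr1, and for Fosb through the libraries at 0.

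Ier2, Atf3 and Dusp1 did not share the low level at E9.5. Ier2 held 116 to 159 normalized CPM at E9.5, 91.5 to 192 at E10 and 123 to 167 at E11, so the stages overlapped throughout, and its log2 difference between E10 and E9.5 was 0.01 (SE 0.24, edgeR adjusted p = 0.99). Atf3 held 42.3 to 61.6 at E9.5, 53.1 to 64.5 at E10 and 24 to 44.2 normalized CPM at E11, with every E11 library below every E10 library. Its log2 difference between E11 and E10 was -0.83 (SE 0.32, edgeR adjusted p = 0.49). Dusp1 was the highest at E11, with 190, 151 and 219 normalized CPM, against 71.6 to 140 at E9.5 and 42.7 to 117 at E10. The E11 libraries overlapped neither of the earlier stages, and the log2 difference between E11 and E10 was 1.20 (SE 0.34, edgeR adjusted p = 0.34).

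Of the 10 members, 7 had an unadjusted p under 0.05 between E10 and E9.5 (15.2% of all genes tested did), and 7 did between E11 and E9.5 (17.1% of all genes). Of the 10 members, 5 were higher in every E10 than in every E9.5 CD44Neg library (Fos, Jun, Junb, Hspa1a and Hspa1b), as were 7.36% of all genes tested. At E11, 5 were higher without overlap (Fos, Jun, Junb, Dusp1 and Hspa1a), as were 9.86% of all genes. The 2 contrasts share their E9.5 libraries. Rn45s took 1.92 to 13.8% of the reads in these, 9.12 to 19.4% in the E10 and 15.2 to 17.9% in the E11 CD44Neg libraries, so that its share overlapped between E9.5 and E10 and not between E9.5 and E11. With the counts of Rn45s left out, the Hspa1a differences were 3.51 and 3.14 (edgeR adjusted p = 0.0059 and 0.0027). That fit removes only the counts of Rn45s itself, so it cannot separate the Rn45s share from stage. The part of the Rn45s share in the Hspa1a level was not tested.

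**Figure D2:**
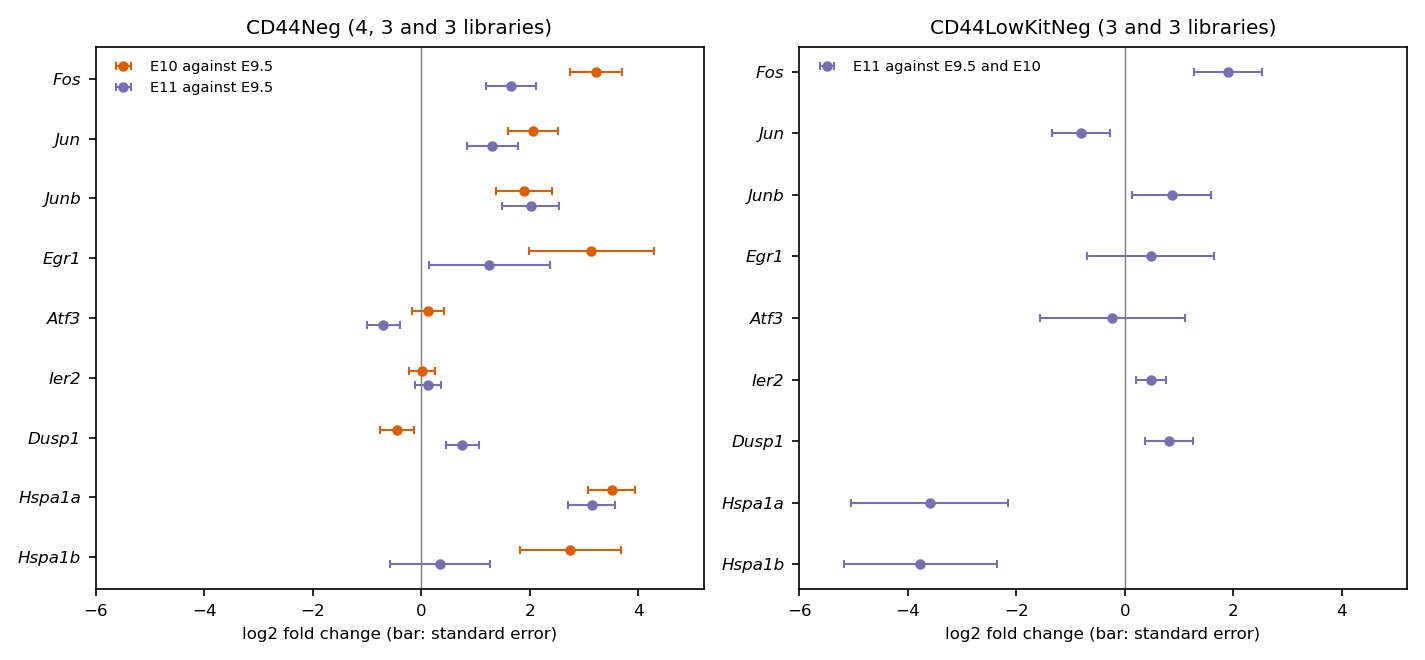
Log2 fold changes between stages with their standard errors on the horizontal axis, for the members other than Fosb (at 0 in all 4 E9.5 CD44Neg libraries), within CD44Neg (left) and within CD44LowKitNeg (right). Hspa1a is 3.51 and 3.14 higher than at E9.5 within CD44Neg, and the E11 estimate within CD44LowKitNeg is -3.59 with a wide error.

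The 6 CD44LowKitNeg libraries share no sample with the contrasts above. Fos held 13.8 normalized CPM in the E9.5 library, 76.7 and 28.5 at E10, and 169, 68.0 and 197 at E11. Hspa1a held 6.72 at E9.5, 116 and 281 at E10, and 20.2, 0 and 12.5 normalized CPM at E11. The E9.5 library was again the lowest for Fos, whereas for Hspa1a the E10 libraries were high and the E9.5 and E11 libraries low. Cell type markers differed between these stages too. Blood progenitor markers (Ptprc, Runx1, Myb, Spi1, Gfi1) summed to 103 normalized CPM at E9.5, 103 to 256 at E10 and 2.02 to 8.055 at E11. The 5 endothelial markers summed to 2116, 2510 to 3041 and 4717 to 5050, and mesenchyme markers to 14.7, 4.19 to 11.1 and 29.2 to 99.1. Their part in the Fos and Hspa1a levels was not tested. E11 against the 3 earlier libraries gave a log2 difference of 1.90 for Fos (SE 0.63, edgeR adjusted p = 0.16) and -3.59 for Hspa1a (SE 1.44, edgeR adjusted p = 0.25). None of the 9 members tested was called by edgeR (0.173% of 11010 genes were, 19 genes, and 0 to 2 genes without any 1 of the 6 libraries) or by DESeq2, and 3 had an unadjusted p under 0.05, Fos, Hspa1a and Hspa1b, as did 16.8% of all genes.

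The E9.5 library of CD44LowKitPos cells was low for the same genes. It held 7.69 normalized CPM of Fos, 18.9 of Jun, 5.58 of Junb and 23.1 of Hspa1a. The 2 E10 libraries of that population held 17.99 and 91.9 of Fos, 113 and 140 of Jun, 11.5 and 11.5 of Junb, and 205 and 350 of Hspa1a. Over the 6 E9.5 libraries of all 3 populations, Hspa1a ranged from 6.72 to 23.1 normalized CPM and Fos from 5.88 to 13.8, while the 7 E10 libraries ranged from 55.9 to 350 and from 17.99 to 110. These ranges did not overlap for either gene, nor for Jun, so that 3 of the 10 members were higher in every E10 than in every E9.5 library, as were 0.456% of 12949 genes. Within CD44Neg this separation was already described above, and the populations are unequally represented at the 2 stages.

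Among populations, with the stages pooled, Fos was the 1 member called by edgeR. It held 195, 404 and 343 normalized CPM in the CD44High libraries, and 5.88 to 110 with a median of 15.02 in CD44Neg. All 3 CD44High libraries lay above all 10 CD44Neg libraries. Fos was 10.7-fold higher in CD44High than in CD44Neg, a log2 difference of 3.42 (SE 0.72, edgeR adjusted p = 0.0010, n = 3 against 10). It was 1 of 10 members called in this comparison, where 14.4% of 12949 genes were called. Because all CD44High libraries came from E11, the comparison was repeated within E11, where the 3 CD44Neg libraries held 14.4 to 37.1 normalized CPM and the log2 difference was 3.76 (SE 0.52, edgeR adjusted p = 0.00065, with 8.47% of 11942 genes called). The call held in all 8 alternatives, at 2.79 to 3.76, and in all 22 fits without 1 library, at 3.15 to 3.92. Macrophage markers were high and endothelial markers near 0 in the same 3 libraries (values above), and their part in the Fos level was not tested.

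CD44LowKitNeg cells lay between these populations in Fos. Their libraries ranged from 13.8 to 197 normalized CPM with a median of 72.4, overlapping both neighbours. Over all stages, the log2 difference between CD44LowKitNeg and CD44Neg was 1.65 (SE 0.62, edgeR adjusted p = 0.064, n = 6 against 10). Within E11, where the 3 CD44LowKitNeg libraries lay above the 3 CD44Neg libraries, it was 2.76 (SE 0.50, edgeR adjusted p = 0.013, with 1.06% of genes called), and within E10 it was -0.26 (edgeR adjusted p = 0.90). Neither passed the threshold, and the difference between the 2 stages, 3.01 on the log2 scale (SE 0.83, edgeR adjusted p = 0.20), passed it only without a filter on low counts (edgeR adjusted p = 2.6e-05). CD44High against CD44LowKitNeg gave 1.77 (SE 0.83, edgeR adjusted p = 0.12). In CD44LowKitPos cells Fos ranged from 7.69 to 91.9, and the log2 difference of CD44High from them was 3.00 (SE 1.08, edgeR adjusted p = 0.11), with no overlap.

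Hspa1a ordered the populations differently. It held 185, 180 and 367 normalized CPM in CD44High and 23.1 to 350 in CD44LowKitPos, with medians of 185 and 205. The medians of CD44Neg and CD44LowKitNeg were 62.8 and 16.4 normalized CPM, with ranges of 6.89 to 219 and 0 to 281. All populations overlapped with at least 1 other, and no pooled contrast of Hspa1a was called, the log2 difference of CD44High being 1.64 from CD44Neg (SE 1.02, edgeR adjusted p = 0.28) and 1.75 from CD44LowKitNeg (SE 1.15, edgeR adjusted p = 0.28). Within E11, Hspa1a was called between CD44High and CD44LowKitNeg at a log2 difference of 4.36 (SE 1.04, edgeR adjusted p = 0.00997, 15.5% of genes called). Against CD44Neg, the E11 libraries of CD44LowKitNeg differed by -3.24 (SE 0.99, edgeR adjusted p = 0.089) and the E10 libraries by 0.60 (edgeR adjusted p = 0.61), while the pooled value was -0.11 (SE 0.91, edgeR adjusted p = 0.95). The difference between the 2 stages was -3.83 on the log2 scale (SE 1.28, edgeR adjusted p = 0.29). No member was called in that test by edgeR, which called 0.00806% of 12403 genes, or by DESeq2. Without a filter on low counts edgeR called both Fos (3.01, SE 0.56, adjusted p = 2.6e-05) and Hspa1a (-3.83, SE 0.47, adjusted p = 1.4e-12), beside 1.19% of 15983 genes, at nearly the same sizes and with smaller errors. In the filtered fit 2 members, Fos and Hspa1a, and 10.7% of all genes had an unadjusted p under 0.05.

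**Figure D3:**
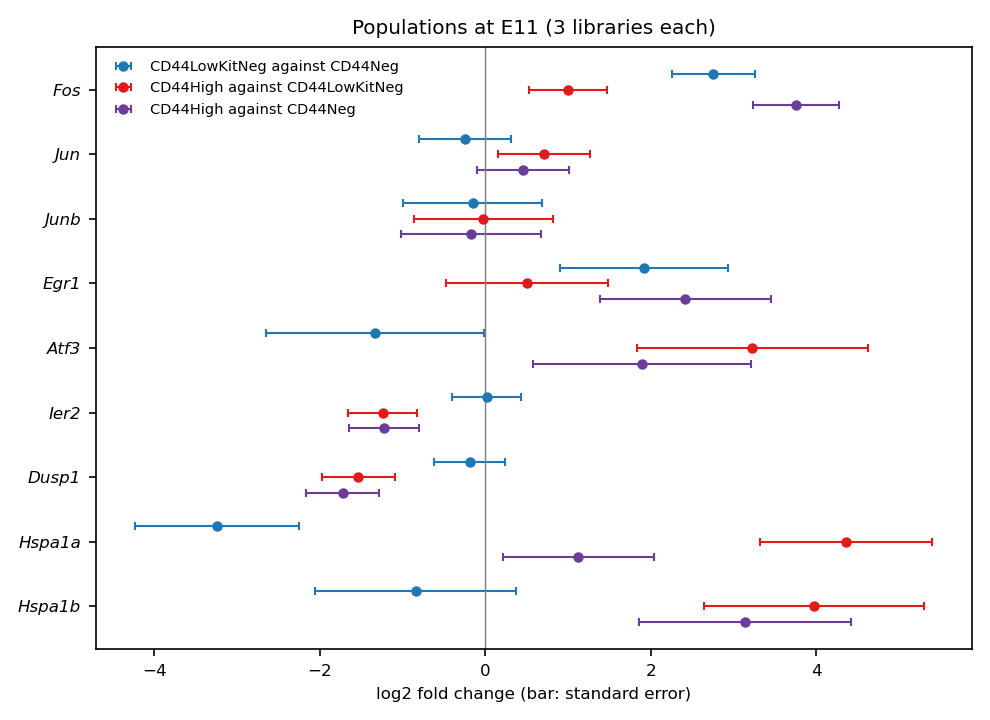
Log2 fold changes between populations at E11 with their standard errors on the horizontal axis, for the members other than Fosb, from the 9 E11 libraries (3 in each of 3 populations). Fos is 2.76 and 3.76 higher in CD44LowKitNeg and CD44High than in CD44Neg, and Hspa1a is 3.24 lower in CD44LowKitNeg, with only the CD44High contrasts of Fos with CD44Neg and of Hspa1a with CD44LowKitNeg called.

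Hspa1b had lower means than its neighbour Hspa1a in every population and did not follow it in every contrast. In the E9.5 library of CD44LowKitNeg it held 8.23 normalized CPM against 6.72 of Hspa1a, and in CD44LowKitNeg replicate 12 both were at 0. Within CD44Neg it held 1.58 to 5.88 normalized CPM at E9.5, 7.14 to 56.2 at E10 and 1.06 to 9.91 at E11, so that E10 lay above E9.5 without overlap and E11 overlapped both. Its log2 difference from E9.5 was 2.75 at E10 (SE 0.93, edgeR adjusted p = 0.18), which fell to 1.26 without replicate 9, the library at 56.2, and 0.34 at E11 (SE 0.92, edgeR adjusted p = 0.92), where that of Hspa1a was 3.14. The pair had a Spearman's rho of 0.54 over the 10 CD44Neg libraries after centring on the stage means (two-sided exact permutation p = 0.17, adjusted p = 0.90, n = 10). In the CD44High libraries Hspa1b held 61.0, 23.96 and 40.3 normalized CPM, against 1.06, 2.53 and 9.91 in the E11 CD44Neg libraries. The E11 CD44LowKitNeg libraries held 1.34, 0 and 6.04. At E11 CD44High thus lay above both other populations without overlap. The log2 difference of CD44High from CD44Neg was 2.04 over all stages (SE 1.07, edgeR adjusted p = 0.19), 3.14 within E11 (SE 1.28, edgeR adjusted p = 0.12) and 3.67 with stage as a covariate (SE 0.95, edgeR adjusted p = 0.0064), the last of which was called. With the counts of both genes summed, the Hspa1a contrast within CD44Neg between E11 and E9.5 was still called (2.83, edgeR adjusted p = 0.0048) and that between E10 and E9.5 was not (3.37, edgeR adjusted p = 0.0102).

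**Figure D4:**
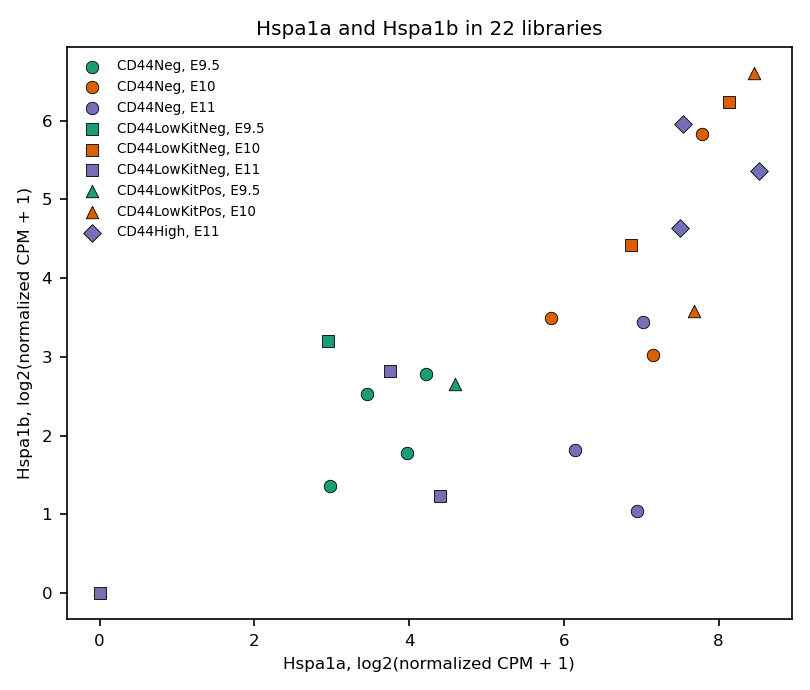
Hspa1b on the vertical and Hspa1a on the horizontal axis, both as log2(normalized CPM + 1), 1 point per library, with the population as symbol and the stage as colour. The 3 CD44High libraries lie at the upper right, where Hspa1b held 23.96 to 61.0 normalized CPM. Some E10 libraries lie there too, with Hspa1b at 96.45 in CD44LowKitPos replicate 18, 74.5 in CD44LowKitNeg replicate 16 and 56.2 in CD44Neg replicate 9. The 6 E9.5 libraries, which come from the 3 populations other than CD44High, lie at the lower left together with the E11 libraries of CD44LowKitNeg.

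Ier2 and Dusp1 had lower means in CD44High than in CD44Neg, but neither difference was called over all stages. Ier2 held 30.5, 52.2 and 117 normalized CPM in CD44High, and 91.5 to 192 in CD44Neg with a median of 138. The groups overlapped through CD44High replicate 22. The log2 difference was -1.08 (SE 0.32, edgeR adjusted p = 0.015), which was not called, while DESeq2 called it (adjusted p = 0.0038, with 18.5% of genes called), as did edgeR without replicate 22 (-1.81, adjusted p = 0.00050). Dusp1 held 25.1, 49.0 and 105 normalized CPM in CD44High, and 151 to 219 in the E11 CD44Neg libraries, so that at E11 the groups did not overlap. Its log2 difference from CD44Neg was -1.08 over all stages (SE 0.49, edgeR adjusted p = 0.12), -1.72 within E11 (SE 0.44, edgeR adjusted p = 0.022) and -1.58 with stage as a covariate (SE 0.43, edgeR adjusted p = 0.0099), and only the last was called. With stage as a covariate 3 of 10 members were called in this comparison, Fos, Dusp1 and Hspa1b, beside 14.6% of all genes.

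The Atf3 differences of CD44High turned sign with 1 library. Atf3 held 24 to 64.5 normalized CPM in CD44Neg with a median of 49.7, and 13.2, 0, 30.98, 15.1, 10.1 and 11.5 in CD44LowKitNeg. In CD44LowKitPos it held 12.1, 0 and 2.13, all below CD44Neg, and in CD44High 2.38, 4.53 and 372 normalized CPM. CD44High replicate 22, the library at 372, also held more Jun, Junb, Egr1, Ier2, Dusp1 and Hspa1a than the other 2. The log2 difference between CD44LowKitNeg and CD44Neg was -1.82 (SE 0.54, edgeR adjusted p = 0.022), which was not called, while DESeq2 called it (adjusted p = 0.0036). That of CD44High from CD44LowKitNeg was 3.22 (SE 1.05, edgeR adjusted p = 0.025) and turned to -2.05 without replicate 22. From CD44LowKitPos it was 4.73 (SE 1.47, edgeR adjusted p = 0.056), and -0.55 without that library. Single libraries also set the sign of other small differences that were not called. That of Fos between CD44LowKitPos and CD44Neg was 0.42, and -1.21 without CD44LowKitPos replicate 18. That of Hspa1a between CD44High and CD44LowKitPos was 0.34, -0.21 without CD44LowKitPos replicate 19 and -0.098 without CD44High replicate 22. That of Hspa1a between CD44LowKitNeg and CD44Neg, -0.11, turned positive in 6 of 16 such fits, and that between E11 and E10 within CD44Neg, -0.37, was 0.12 without CD44Neg replicate 9.

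Jun, Junb, Egr1 and Fosb were not called between populations. Jun had medians of 32.4, 37.4, 113 and 37.0 normalized CPM in CD44Neg, CD44LowKitNeg, CD44LowKitPos and CD44High, and all 4 ranges overlapped. Junb had medians of 21.7, 24.6, 11.5 and 10.7 in the same order, and Egr1 3.97, 6.31, 2.71 and 32.5, with the 3 CD44High libraries of Egr1 (13.9, 32.5 and 75.6) above the 3 CD44LowKitPos libraries. The log2 difference of Egr1 between CD44High and CD44LowKitPos was 2.82 (SE 1.48, edgeR adjusted p = 0.33), or 7.06-fold, and between CD44High and CD44Neg 1.84 (SE 1.02, edgeR adjusted p = 0.22). Jun differed by 1.35 between CD44LowKitPos and CD44Neg (SE 0.58, edgeR adjusted p = 0.18). Fosb did not exceed 4.70 normalized CPM in any library and was at 0 in 11 of the 22. It was too low to be tested in the fits restricted to CD44LowKitNeg and CD44Neg cells of all stages or to CD44LowKitNeg alone.

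No member was called by edgeR in the other 5 population comparisons over all stages. Of the 9 members tested between CD44LowKitNeg and CD44Neg, 2 had an unadjusted p under 0.05, as did 32.6% of all genes, and DESeq2 called 1, Atf3, beside 15.9% of all genes, while edgeR called 10.2% of 11022 genes. CD44LowKitPos differed from CD44LowKitNeg in 4.26% and from CD44Neg in 3.48% of 12949 genes, and 0 and 2 of the 10 members had an unadjusted p under 0.05, beside 27.2 and 20.3% of all genes. CD44High differed from CD44LowKitPos in 3.01% of genes, with 2 members and 17.8% of all genes at an unadjusted p under 0.05, and from CD44LowKitNeg in 16%, with 4 members and 37.5% of all genes. DESeq2 called none of the members in the last 4 of these comparisons.

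Other immediate-early genes were called at shares near those of all genes. Of 28 on the list, 24 were tested between CD44High and CD44Neg, of which 2 rose and 2 fell, beside 14.4% of all genes called, with a median log2 difference of -0.21 against -0.02 over all genes. Zfp36, which destabilizes inflammatory mRNAs, was 3.10 higher (SE 0.61, edgeR adjusted p = 0.00047), and the survival gene Mcl1 was 0.88 higher (edgeR adjusted p = 0.0054). Sgk1, a kinase induced by glucocorticoid and serum, was 4.96 lower and the matricellular gene Cyr61 3.55 lower (edgeR adjusted p = 0.0015 and 0.0011). With 1 library left out, 0 to 3 rose and 1 to 3 fell. The call of Zfp36 was lost without CD44High replicate 22, that of Mcl1 in 4 of 22 fits (without CD44High replicate 20, 21 or 22 or CD44Neg replicate 8), that of Sgk1 without CD44High replicate 20 or 22 and that of Cyr61 without replicate 21. Between CD44LowKitNeg and CD44Neg, 1 of 23 rose (Mcl1, 0.76, edgeR adjusted p = 0.0070) and 2 fell, Myc by 1.97 (edgeR adjusted p = 1.7e-05) and Sgk1 by 3.21 (edgeR adjusted p = 0.0016), beside 10.2% of all genes, with a list median of 0.24. The call of Mcl1 was lost in 7 of 16 fits without 1 library (CD44Neg replicate 2, 3 or 8, or CD44LowKitNeg replicate 11, 12, 13 or 16), those of Myc and Sgk1 in 0. Myc, the growth regulator, ranged from 53.9 to 121 normalized CPM in CD44Neg and from 13.01 to 39.1 in CD44LowKitNeg, with no overlap. It was higher again in CD44LowKitPos (89.3 to 107) and CD44High (172 to 189), with log2 differences from CD44LowKitNeg of 1.93 (edgeR adjusted p = 0.00014) and 2.81 (edgeR adjusted p = 5.2e-08). Between CD44High and CD44LowKitNeg 2 of 24 rose, Myc and Zfp36 (3.00), and 2 fell, the AP-1 gene Fosl2 (-3.55) and Cyr61 (-3.20), beside 16% of all genes. Myc was called in every fit without 1 library, whereas the call of Zfp36 was lost without CD44High replicate 22, that of Cyr61 without replicate 21 and that of Fosl2 without any 1 of the 3 CD44High libraries. None of the list was called by edgeR between CD44Neg stages, where the list medians were 0.47 at E10 and 0.64 at E11 against E9.5, beside 0.03 for all genes in both.

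The other dual-specificity phosphatases and the upstream regulators each gave at most 2 calls in a comparison. Dusp6, which inactivates ERK, was lower in CD44LowKitPos than in CD44LowKitNeg (-1.80, edgeR adjusted p = 0.0039) and CD44Neg (-1.92, edgeR adjusted p = 0.0016), 1 of 10 tested in each, beside 4.26 and 3.48% of all genes. The first call was lost without CD44LowKitPos replicate 17 or 19 and the second without replicate 17. Dusp10, which acts on JNK and p38, was higher in CD44High than in CD44LowKitNeg (6.07, edgeR adjusted p = 0.0057), 1 of 10 beside 16% of all genes, a call lost in 8 of 22 fits without 1 library (CD44LowKitNeg replicate 11, 12, 13, 15 or 16, or any CD44High replicate). Of the 15 upstream regulators, Elk3, an ETS partner of serum response factor, was lower in CD44High than in CD44Neg (-4.13, edgeR adjusted p = 3.7e-07), CD44LowKitNeg (-3.79) and CD44LowKitPos (-2.21), and lower in CD44LowKitPos than in CD44Neg (-1.92), beside 14.4, 16, 3.01 and 3.48% of all genes called. The first 2 of these calls held in every fit without 1 library, the third was lost without CD44LowKitPos replicate 18 or 19 or CD44High replicate 20, and the last without CD44LowKitPos replicate 17 or 18. Mapk3, which encodes ERK1, was lower in CD44High than in CD44Neg (-1.20, edgeR adjusted p = 0.0059, lost without CD44High replicate 20 or 22) and CD44LowKitNeg (-1.87). Elk3 rose within CD44Neg from E9.5 to E11 by 1.28 (SE 0.16, edgeR adjusted p = 0.0014), a call lost without CD44Neg replicate 1 or 3 and with the 22-library spread, while Hsf1, Srf, Creb1 and the other 11 regulators were not called between CD44Neg stages. None of the 5 stress genes of the ATF4 branch was called by edgeR in any of the 11 comparisons.

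Between the CD44Neg stages in which Hspa1a rose, no other chaperone was called higher. Of 22 other heat shock genes and chaperones tested within CD44Neg between E11 and E9.5, 0 rose and 4 fell, beside 0.684% of all genes called, with a median log2 difference of -0.59 against 0.03 over all genes. Hspa8, the constitutive Hsp70, held 3736 to 4997 normalized CPM at E9.5 and 2362 to 2877 at E11. It fell by 0.79 on the log2 scale (SE 0.13, edgeR adjusted p = 0.0065). Hsph1, a nucleotide exchange factor for Hsp70, fell by 1.46 (SE 0.26, edgeR adjusted p = 0.0094), Hspe1, the mitochondrial co-chaperonin, by 1.10 (SE 0.15, edgeR adjusted p = 0.0029), and the stress-inducible Hsp90 gene Hsp90aa1 by 0.76 (SE 0.14, edgeR adjusted p = 0.0091). For each of these 4 genes the E9.5 libraries lay above the E11 libraries without overlap, as they did for 10.6% of all genes. All 4 calls were lost without CD44Neg replicate 1, 2, 3, 4 or 7, that is in 5 of 10 such fits, and with the spread estimated over all 22 libraries, while the list median stayed between -0.68 and -0.48 over the 10 fits. Hspa8 and Hspe1 kept their calls in the other 5 fits, and Hsp90aa1 and Hsph1 in 2 each. Hspb1, a small heat shock protein, and Bag3, a co-chaperone of Hsp70, had the only 2 positive log2 differences of the 22 between E11 and E9.5, and neither was called. Hspb1 held 2.58 to 10.2 normalized CPM at E9.5, 15.7 to 70.1 at E10 and 5.58 to 23.1 at E11, so that E10 lay above E9.5 without overlap. Its log2 difference from E9.5 was 2.94 at E10 (SE 0.66, edgeR adjusted p = 0.051) and 1.26 at E11 (SE 0.65, edgeR adjusted p = 0.35). That of Bag3 was 0.97 at E10 (SE 0.42, edgeR adjusted p = 0.30) and 0.83 at E11 (SE 0.42, edgeR adjusted p = 0.34). Between E10 and E9.5 none of the 22 was called by edgeR, with a median of -0.25.

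**Figure D5:**
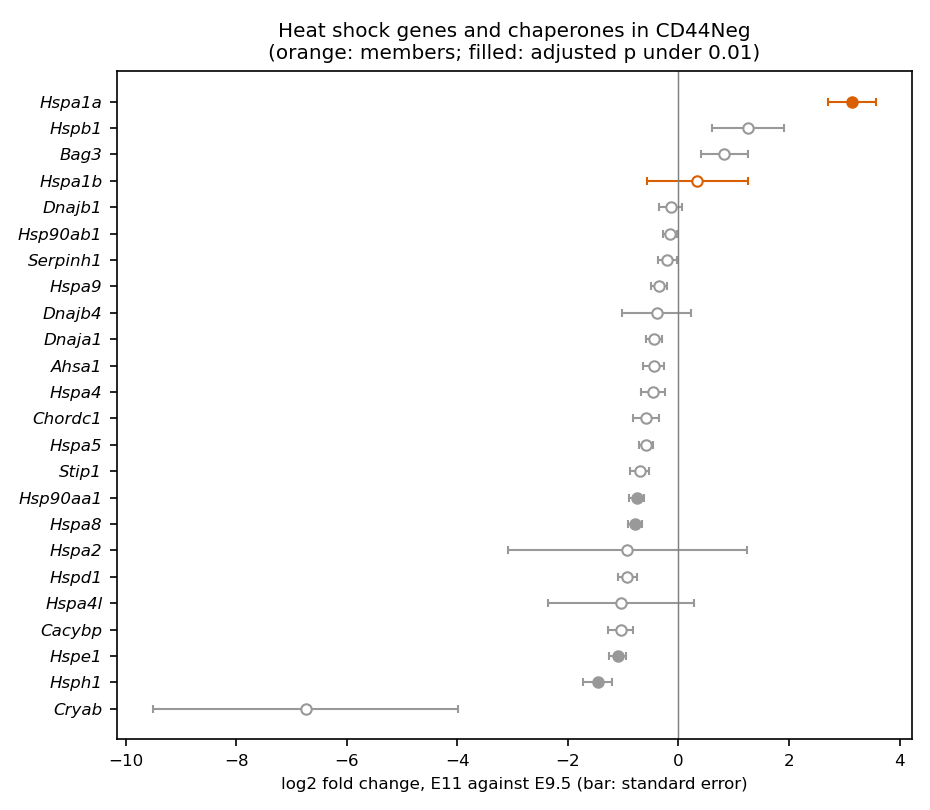
Log2 fold changes between E11 and E9.5 within CD44Neg with their standard errors on the horizontal axis, for Hspa1a and Hspa1b (orange) and the 22 other heat shock genes and chaperones tested (grey), with filled points called at an adjusted p under 0.01. Hspa1a, at 3.14, is the only filled point on the right, and Hsph1, Hspe1, Hspa8 and Hsp90aa1 are the filled points on the left.

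Chaperones were also called between populations, beside shares of all genes that were larger than between stages. Between CD44LowKitNeg and CD44Neg, 0 of 21 rose and 6 fell, where 10.2% of all genes were called, with a median of -0.75 against 0.01 over all genes, among them Hsp90ab1, the constitutive Hsp90 (-0.96, SE 0.12, edgeR adjusted p = 1.6e-05), and Stip1, which links Hsp70 to Hsp90 (-1.21, SE 0.20, edgeR adjusted p = 0.00035). Hsp90ab1 ranged from 2976 to 4242 normalized CPM in CD44Neg and from 1579 to 2300 in CD44LowKitNeg, with no overlap. Between CD44LowKitPos and CD44LowKitNeg, 5 of 23 rose and 1 fell, where 4.26% of all genes were called, with Ahsa1, which stimulates Hsp90 (1.29, edgeR adjusted p = 0.00099), and the collagen chaperone Serpinh1 (-1.50, edgeR adjusted p = 0.00088) the strongest by adjusted p. The higher calls of Hspa9, Hspd1 and Hsp90ab1 were lost in 18, 17 and 16 of 22 fits without 1 library. Those of Ahsa1, Stip1 and Serpinh1 were lost only without CD44LowKitPos replicate 17. CD44LowKitPos against CD44Neg gave 0 higher and 2 lower of 23, Hspa5 (-1.13) and Serpinh1 (-2.26), beside 3.48% of all genes, and the call of Hspa5 was lost in 17 of 22 fits without 1 library. In CD44High, 5 of 23 were higher and 1 lower than in CD44LowKitNeg, where 16% of all genes were called, with Serpinh1 (-4.38, edgeR adjusted p = 5.8e-10) and Hsp90aa1 (1.97, edgeR adjusted p = 0.00014) first. Against CD44Neg 3 of 23 were higher and 1 lower, Hsp90aa1 (1.34), Hspe1 (1.36), Dnajb4 (1.82) and Serpinh1 (-5.14), a share close to the 14.4% of all genes called. Against CD44LowKitPos, CD44High differed in Serpinh1 alone (-2.88, edgeR adjusted p = 8.5e-07), 1 of 23 beside 3.01% of all genes. With 1 library left out, the chaperones called between CD44LowKitPos and CD44LowKitNeg ranged from 0 to 7 higher (0 without CD44LowKitPos replicate 17), those between CD44High and CD44LowKitNeg from 2 to 9 higher (2 without CD44High replicate 20 or 22) and those between CD44High and CD44Neg from 0 to 3 higher (0 without CD44High replicate 20, and Hspe1 was lost in 12 of 22 fits), while the number lower between CD44LowKitNeg and CD44Neg ranged from 5 to 8.

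Members were compared with each other over the 10 CD44Neg libraries, on log2 normalized CPM with a prior count of 2. Since the E9.5 libraries stood apart in Fos and Hspa1a, the correlations were read after centring each gene on its stage mean, with 864 permutations within stage. Of 45 pairs, 24 had a Spearman's rho above 0, 2 had an exact p under 0.05 and 0 passed adjustment over the pairs. Fos and Hspa1a had a centred rho of 0.73 (two-sided exact permutation p = 0.028, adjusted p = 0.63, n = 10) and r of 0.66 (exact permutation p = 0.087, adjusted p = 0.89, n = 10). The other pair was Atf3 and Hspa1a, named after its value was seen, with the lowest centred rho of all pairs, -0.69 (two-sided exact permutation p = 0.021, adjusted p = 0.63, n = 10). The next highest after Fos and Hspa1a were Fos and Ier2 (0.62) and Egr1 and Ier2 (0.58), also named after their values were seen, with exact permutation p of 0.18 and 0.18. The pairs chosen as the extremes of the rho without centring were Fos and Hspa1a, Fos and Jun, Junb and Egr1, and Atf3 and Dusp1. After centring, the last 3 had a rho of 0.39, 0.53 and -0.46, with exact permutation p of 0.29, 0.18 and 0.16, and adjusted p of 0.93, 0.90 and 0.90.

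The genes whose levels were most like Fos over the 22 libraries, among 12939 genes and by Pearson's r of log2 normalized CPM, were AB124611 (0.87), Rbpj, the DNA-binding partner of Notch (0.84), 2310001H17Rik (0.82), Ifnar2, a chain of the type I interferon receptor (0.77), and Tmem179b (0.77). All 5 had their highest mean in CD44High, AB124611 with 25.6 normalized CPM against 0.637 to 2.18 elsewhere. Those most like Hspa1a were Ptgs1, which encodes cyclooxygenase-1 (0.87), 1110038B12Rik (0.81), Daglb (0.80), Wdr46 (0.78) and Cd47 (0.77). Ptgs1 had means of 36.8, 14.2, 174 and 169 normalized CPM in CD44Neg, CD44LowKitNeg, CD44LowKitPos and CD44High. The libraries share their population and stage, so these coefficients are descriptions.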

How the data were processed

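RNA from 25 sorted cells per library was amplified by SMART-Seq2 (polyA, 14 cycles) and sequenced on an Illumina NextSeq. The authors clipped adaptors with FASTX, mapped with RNA STAR and counted reads per gene with htseq-count; the deposited values are raw counts of 24454 symbols, and the submitters' processing notes name mm10. Versions, strand setting and handling of shared reads are not given in the sources used here. All columns were matched to a library by name.

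R 4.3.3 with edgeR 4.0.16 and limma 3.58.1 was used: filterByExpr (minimum count 10, total 15), TMM, quasi-likelihood test (prior count 0.125) and Benjamini-Hochberg adjustment over all genes tested, called at an adjusted p under 0.01. CD44LowKitNeg was compared with CD44Neg over 16 libraries, other populations in 1 fit of 22, and stages within a population. SEs are derived from the F statistic. DESeq2 1.42.0, other filters and scalings, stage as a covariate, single stages, and leaving out each library were alternatives. Summing Hspa1a with Hspa1b and leaving out E9.5 libraries were added after seeing the data. The fits were tested on simulated data with the same spread set for every gene. Figures used Python 3.11.15 and matplotlib 3.10.9. Members, gene lists and tests were chosen with earlier results of these data known. Named were all members, from each list the 2 called genes with the smallest adjusted p and every called gene where 4 or fewer were called, the 5 genes most like Fos and Hspa1a, and the 3 highest and 1 lowest pairs by rho without centring. Hspb1, Bag3, Cotl1, Hspa9 and Hspd1, 3 further pairs, and Hsf1, Srf and Creb1, were named after their values were seen.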

Additional observations from a re-analysis of the deposited data

Results flagged for a closer look

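One of the 30 groups of 4 to 10 libraries examined (each member in CD44Neg as a whole, in its E9.5 libraries and in CD44LowKitNeg) held a library far from the others. Atf3 was at 0 normalized CPM in CD44LowKitNeg replicate 15, an E10 library, while the 5 other CD44LowKitNeg libraries held 10.1 to 30.98, and on the log2 scale, with the equivalent of 2 reads added to each value, its gap was 0.767 of the whole range, above Dixon's critical value for 6 libraries. On the linear scale of these values the gap did not reach that critical value. About 1 in 20 groups would be singled out by chance. Without this library the log2 difference of Atf3 between CD44LowKitNeg and CD44Neg was called (-1.53, edgeR adjusted p = 0.0031).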

How the results depend on the processing

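Single libraries could not be paired across groups, because the library numbers of the labels run from 1 to 22 and no number is shared between groups. Populations do share stages, each with 1 date code, and stage as a covariate was 1 of the alternatives. Most of the member values followed kept their direction and their side of the threshold, in 289 of 311 combinations with an alternative other than leaving out 1 library. Single stages were among these alternatives. Followed were Fos and Hspa1a, and members with an unadjusted p under 0.05, or an adjusted p under 0.05 in an alternative. A value called in neither fit counted as kept if its direction held. The number of members called was sensitive where p-values lay near the threshold.

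At an adjusted p under 0.05, members called came to 1 for CD44LowKitNeg against CD44Neg, 2 for CD44High against CD44LowKitNeg, 2 for CD44High against CD44Neg and 2 for E10 against E9.5, beside 20.1, 26.8, 22.5 and 0.933% of all genes. With DESeq2 the members called were 1 for CD44LowKitNeg against CD44Neg, 2 for CD44High against CD44Neg, 3 for E10 against E9.5 and 2 for E11 against E9.5. Without a filter there were 3 for E10 against E9.5 and 2 (Fos at 3.01 and Hspa1a at -3.83) for the difference of CD44LowKitNeg against CD44Neg between stages, and with 10 counts required in every library 2 for E10 against E9.5. With the spread taken from all 22 libraries there were 0 for both contrasts with E9.5. Stage as a covariate gave 3 for CD44High against CD44Neg, and E11 alone gave 1 for CD44High against CD44LowKitNeg. Of the correlations between members, 1 pair passed adjustment by Spearman's rho without centring (Fos and Hspa1a), 0 by Pearson and 0 after centring on the stage mean. The cause was not tested for any of these.

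Some differences that were not called turned sign. Hspa1a between CD44LowKitNeg and CD44Neg was 0.041 when summed with Hspa1b and 0.60 within E10. Within E10, Fos was -0.26 between CD44LowKitNeg and CD44Neg, 0.023 between CD44LowKitPos and CD44LowKitNeg and -0.23 between CD44LowKitPos and CD44Neg. Hspa1a between CD44High and CD44LowKitPos was -0.21 without the E9.5 libraries, a setting added after seeing the data.

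Leaving out 1 library at a time, members called ranged from 0 to 1 for CD44LowKitNeg against CD44Neg (1 without CD44LowKitNeg replicate 15), from 0 to 1 for CD44High against CD44LowKitNeg (1 without CD44High replicate 22), from 1 to 2 for CD44High against CD44Neg (2 without CD44Neg replicate 8 or CD44High replicate 22), and from 0 to 1 for both contrasts with E9.5 (0 without any of 8 libraries at E10, and without CD44Neg replicate 1 or 3 at E11). The log2 difference of Hspa1a ranged from -1.34 to 0.24 between CD44LowKitNeg and CD44Neg, from -0.21 to 1.09 between CD44High and CD44LowKitPos, and from -0.75 to 0.12 between E11 and E10. That of Fos between CD44LowKitPos and CD44Neg ranged from -1.21 to 0.93. That of Atf3 ranged from -0.55 to 6.78 between CD44High and CD44LowKitPos and from -2.05 to 3.66 between CD44High and CD44LowKitNeg.

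Over all genes, the lowest and highest numbers called over the alternatives that kept every library of a comparison or stage were 2 and 1746 for CD44LowKitNeg against CD44Neg (1121 as reported), 141 and 1265 for CD44LowKitPos against CD44LowKitNeg (552), 190 and 829 for CD44LowKitPos against CD44Neg (451), 116 and 716 for CD44High against CD44LowKitPos (390), 1179 and 2665 for CD44High against CD44LowKitNeg (2067), and 839 and 2253 for CD44High against CD44Neg (1864). For E10 against E9.5 they were 0 and 231 (2), for E11 against E9.5 6 and 429 (77), for E11 against E10 0 and 45 (0), for E11 against the earlier stages within CD44LowKitNeg 21 and 558 (19), and for the difference between stages 1 and 190 (1). The lowest came from a single stage, the strictest filter or the 22-library spread where they fell below the reported number, and the highest from DESeq2 except for the last, which came from no filter. With 1 library left out, the numbers ranged from 875 to 1222 for CD44LowKitNeg against CD44Neg, 65 to 687 for CD44LowKitPos against CD44LowKitNeg (65 without CD44LowKitPos replicate 17, 160 without replicate 18, and 312 to 342 without CD44LowKitNeg replicate 11, 12 or 13), 159 to 630 for CD44LowKitPos against CD44Neg (182 and 159 without CD44LowKitPos replicate 17 and 18), 251 to 408, 1334 to 2176 and 1340 to 1889 for CD44High against CD44LowKitPos, CD44LowKitNeg and CD44Neg (251 and 1334 without CD44High replicate 22), 0 to 3 for E10 against E9.5, 8 to 98 for E11 against E9.5 (8, 21, 9, 14 and 24 without CD44Neg replicate 1, 2, 3, 4 and 7), 0 to 1 for E11 against E10, 0 to 2 within CD44LowKitNeg and 0 to 3 for the difference between stages. The shares of all genes called move with these numbers. In the simulated data, with 1 spread for every gene, DESeq2 made up to 15 false calls (among 12513 genes) and edgeR at most 1. DESeq2 also recovered more changes there. Between E11 and E9.5 it found 65 of 100 8-fold and 24 of 100 4-fold changes, against 31 and 3 by edgeR.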
